A study of Homo sapiens with 6 samples.

Results

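The ZNF genes are the largest group of human genes named for zinc fingers, small folds in which cysteines and histidines hold a zinc ion and adjacent residues read DNA or RNA. Members were chosen by their level: protein-coding genes whose symbol is ZNF followed by a digit and whose mean over all libraries was at least 10 CPM, where CPM is the count scaled to the library's total. Of 515 protein-coding ZNF genes in a table of 60671 genes, 138 met this rule. The level chose the members and is not a finding. Just inside the threshold were ZNF747 at 10.04 CPM, ZNF543 at 10.1 CPM and ZNF41 at 10.2 CPM, and just outside it ZNF507 at 9.89 CPM, ZNF511 at 9.79 CPM and ZNF362 at 9.78 CPM.

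Many ZNF proteins carry a chain of C2H2 fingers, and a large share of these also carry a KRAB domain, which binds the corepressor TRIM28. TRIM28 brings in the histone methyltransferase SETDB1 and other silencing proteins, and KRAB zinc finger proteins are known for silencing transposable elements and for standing in clusters on chromosome 19. ZNF proteins without KRAB include activators, scaffolds of other corepressor complexes, and proteins that act on RNA, ribosomes or the spindle.

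The RNA came from MM.1S, a human multiple myeloma cell line labelled as B lymphoblast, in 3 wild-type (WT) libraries and 3 libraries of a CRISPR/Cas9 CD38 knockout (CD38 KO). CD38 is a surface enzyme that consumes NAD and the target of therapeutic antibodies in myeloma. Both lines carried GFP and click beetle red luciferase from a lentivirus, and the knockout line grew from 1 clone, so the loss of CD38 and the history of that clone cannot be told apart. Live cells were sorted as CD38 positive from the WT line and CD38 negative from the knockout line, and the 3 replicates of each were prepared from those sorted cells, so that p-values measure the spread between these preparations.

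The libraries held 61515519 to 72335496 counts. CD38 was at 3148, 2678 and 2545 counts in WT and at 51, 80 and 48 counts in CD38 KO (log2 fold change -5.39, SE 0.134; edgeR adjusted p = 3.1e-16). All 8 plasma cell markers examined reached 1 CPM in both groups, and their summed level was 7139 to 7145 CPM in WT, against 9088 to 9121 CPM in the knockout. None of 4 mature B cell markers, 4 myeloid markers or 4 stromal markers reached 1 CPM in either group. Of 4 T and NK cell markers only CD3E did, in CD38 KO, where the 4 summed to 5.21 to 5.65 CPM against 1.32 to 1.51 CPM in WT, and of 4 erythroid markers only HBB did, where the 4 summed to 23.4 to 23.8 CPM in WT, against 29.4 to 32.7 CPM in the knockout. Mitochondrially encoded genes took 2.63% to 2.71% of counts in WT and 6.83% to 7.30% in CD38 KO. The part of that difference, and of the marker differences, in the values below was not tested. In bulk RNA, fewer cells expressing a gene and less of its RNA per cell cannot be told apart.

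Against WT, 38 of the 138 members rose in CD38 KO, 42 fell and 58 did not pass the test (edgeR quasi-likelihood, adjusted p under 0.05). The members called came to 58.0%, beside 44.4% of all 20120 genes tested and 63.6% of the 8524 protein-coding genes at 10 CPM or more. By direction, 22.8% of all genes tested were called higher and 21.6% lower, and among protein-coding genes at 10 CPM or more 32.4% and 31.2%. The members' share lay between these backgrounds. The median log2 fold change of the members was -0.05, against 0.0002 over all genes tested, and their median size of change was 0.23, against 0.22 for protein-coding genes at 10 CPM or more.

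The split between rises and falls depends on the scaling. With library size alone, without TMM factors for composition, 18 members rose and 60 fell, and the median over all genes tested moved by -0.08. Of the 80 members called with TMM factors, 60 kept the call and the direction. The values below are TMM-scaled and so are relative to that median.

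Large changes were few. Only 4 members changed at least 2-fold with an adjusted p under 0.05, the falls of ZNF536, ZNF521 and ZNF586 and the rise of ZNF710, beside 4.94% of protein-coding genes at 10 CPM or more and 11.3% of all genes tested. CPM did not overlap between the groups for 93 members, beside 69.2% of protein-coding genes at 10 CPM or more and 52.5% of all genes tested. For 12 members the CD38 KO mean was under 10 CPM, so that they passed the level rule through WT: ZNF536, ZNF586, ZNF117, ZNF33B, ZNF548, ZNF232, ZNF211, ZNF747, ZNF41, ZNF513, ZNF543 and ZNF226. No member had a WT mean under 10 CPM. Of the 126 members at 10 CPM or more in both groups, 38 rose and 37 fell.

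**Figure D1:**
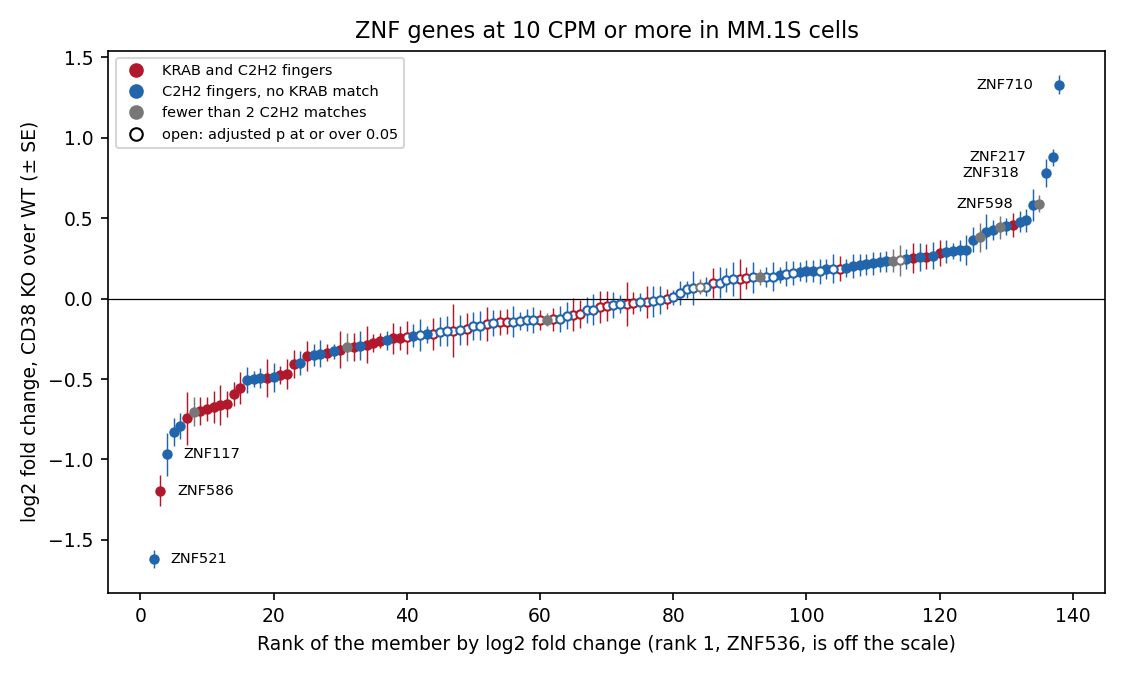
Log2 fold change (CD38 KO over WT, y axis, with SE bars) of the members in rank order (x axis), coloured by domain class; filled points have an edgeR adjusted p under 0.05. ZNF536 lies off the scale, and beyond ZNF521, ZNF586 and ZNF710 all other members lie within a log2 change of 1 in size.

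ZNF536, a C2H2 protein known from brain as a repressor of neuronal differentiation, had the largest change. It was at 95.6, 88.6 and 90.5 CPM in WT and at 0, 0.0336 and 0.0484 CPM in CD38 KO. The WT libraries together held 18896 counts and the CD38 KO libraries 5. The WT libraries were all near 90 CPM, and the knockout libraries were at or under 3 counts, which on this scale are 0.0469 to 0.0504 CPM. The ratio of WT to CD38 KO was 3402 (95% counting interval 1457 to 10478, which covers counting error only). The gene (ENSG00000198597; chromosome 19, 30228290 to 30713538, plus strand, GRCh38 in GENCODE 29) passed the edgeR test with an adjusted p of 3.4e-22; its fitted log2 change, -11.63 (SE 0.153), depends on the prior count and is no bound.

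ZNF521, a many-fingered protein of blood progenitors that recruits the NuRD corepressor and restrains the B cell factor EBF1, was at 82.6, 78.3 and 84.2 CPM in WT and at 27.5, 26.7 and 25.5 CPM in CD38 KO. The groups did not come near each other. It fell by 1.62 on the log2 scale (SE 0.055; edgeR adjusted p = 1.5e-15). It lies at chromosome 18, 25061926 to 25352190 (ENSG00000198795, minus strand). Its close relative ZNF423, which is under the level rule, moved the other way, from 0.356 ± 0.081 CPM in WT to 3.08 ± 0.38 CPM in CD38 KO (SD, n = 3 each; log2 fold change 3.10, SE 0.249; edgeR adjusted p = 1.5e-09).

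ZNF586, a KRAB protein, was at 14.0, 14.3 and 15.0 CPM in WT and at 6.29, 6.39 and 6.25 CPM in CD38 KO. All knockout libraries were below all WT libraries (log2 fold change -1.19, SE 0.096; edgeR adjusted p = 1.4e-09). It lies at chromosome 19, 57769655 to 57819939 (ENSG00000083828, plus strand), where its annotation overlaps ZNF552 and ZNF587B, so its counts may include or lose reads of those genes.

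ZNF710, a C2H2 protein without KRAB, rose most. It was at 23.9, 24.5 and 23.0 CPM in WT and at 59.0, 61.9 and 58.6 CPM in CD38 KO, a gap far wider than the spread within either group (log2 fold change 1.33, SE 0.058; edgeR adjusted p = 8.1e-14). It lies at chromosome 15, 90001392 to 90082206 (ENSG00000140548, plus strand).

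The coding sequences of the first C2H2 match of fixed spacing in these 3 proteins show the finger that gives most members their name. Each is given 5′ to 3′ on the coding strand from GENCODE 29 (GRCh38), within 1 exon, with the codons of the 2 cysteines and 2 histidines that hold the zinc in capitals. The stretches are chr19:30443956-30444018 for ZNF536, chr18:25227498-25227560 for ZNF521 and chr15:90068026-90068088 for ZNF710.
ZNF536: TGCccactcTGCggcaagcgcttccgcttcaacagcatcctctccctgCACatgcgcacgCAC
ZNF521: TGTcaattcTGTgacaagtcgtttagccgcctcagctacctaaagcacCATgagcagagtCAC
ZNF710: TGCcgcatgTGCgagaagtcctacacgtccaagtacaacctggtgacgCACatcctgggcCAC
The search fixed the places of the capitals, so their likeness in all 3 is no result. By the looser pattern used to count fingers, which allows other spacings, ZNF536 has 10 matches, ZNF521 has 27 and ZNF710 has 11.

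ZNF217, which binds the CtBP and LSD1 corepressors and is amplified in breast cancers, was at 36.7, 36.6 and 37.3 CPM in WT and at 71.5, 66.7 and 64.9 CPM in CD38 KO (log2 fold change 0.88, SE 0.054; edgeR adjusted p = 2.3e-11). Its WT libraries were within 1 CPM of each other and the knockout libraries were all far above them. ZNF318, known in B cells for allowing the read-through transcript that makes IgD beside IgM, was at 11.6, 10.5 and 10.7 CPM in WT and at 20.4, 18.9 and 17.1 CPM in CD38 KO (log2 fold change 0.78, SE 0.090; edgeR adjusted p = 3.3e-07). ZNF598, a ubiquitin ligase that marks collided ribosomes, was at 96.1, 82.7 and 87.4 CPM in WT and at 131, 139 and 131 CPM in CD38 KO (log2 fold change 0.59, SE 0.052; edgeR adjusted p = 8.9e-09). The groups did not overlap for any of the 3 genes.

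**Figure D2:**
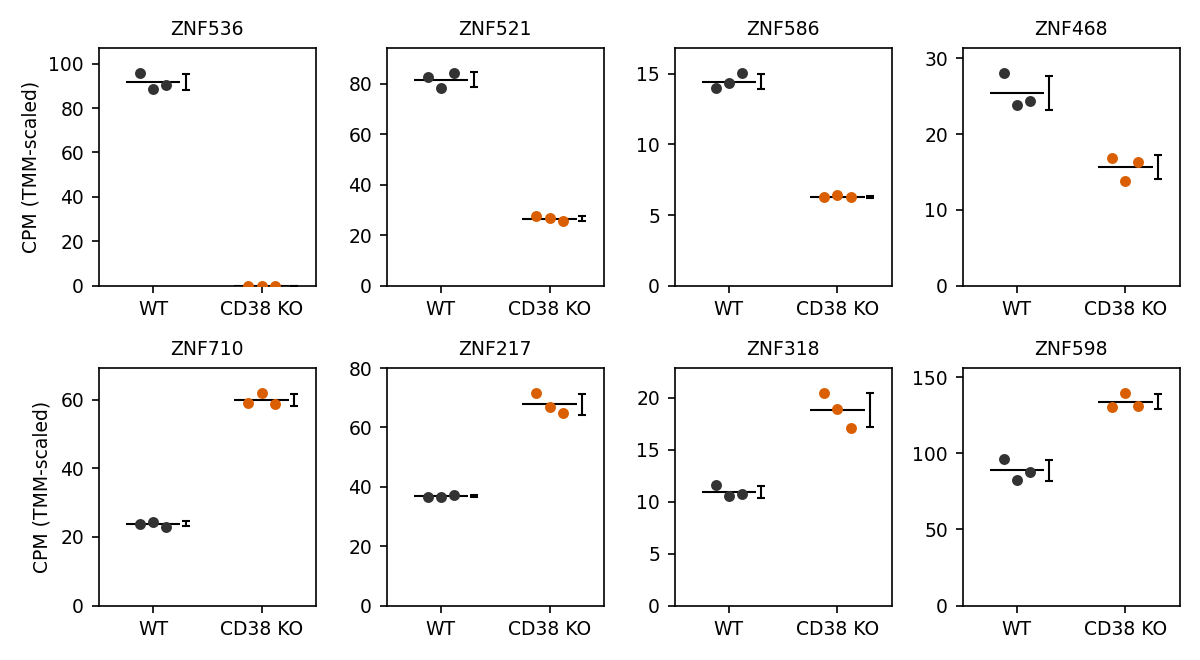
TMM-scaled CPM (y axis, from 0) of 8 members in each library, with the group mean as a line and the SD as a bar beside it (n = 3 each). ZNF536 is near 0 in the 3 knockout libraries, ZNF521, ZNF586 and ZNF468 are lower there, and ZNF710, ZNF217, ZNF318 and ZNF598 are higher.

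Further down the list of falls, the fold changes were closer together. ZNF117 fell by 0.97 on the log2 scale, ZNF367 by a log2 change of -0.83 and ZNF775 by a log2 change of -0.79. ZNF117 overlaps ERV3-1, an endogenous retroviral gene, and 24.6% of the coding windows of ZNF775 recur in another annotated gene, so both counts are uncertain. ZNF37A (-0.75), ZNF468 (-0.70), ZNF267 (-0.69), ZNF611 (-0.67) and ZNF33B (-0.66) are KRAB proteins, and all of these but ZNF267 share over 10% of their coding windows with another gene. ZNF703 (-0.70), which has no C2H2 match and is known from an amplified region of luminal breast cancer, completes the 12 falls that the naming rule takes.

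The next rises were ZNF581 (0.58), ZNF512 (0.49), ZNF652 (0.48), ZNF74 (0.46), ZNF692 (0.45), ZNF428 (0.44), ZNF592 (0.43) and ZNF341 (0.42). ZNF341 is an activator of STAT3 transcription. It was at 11.4, 9.24 and 12.9 CPM in WT and at 15.9, 14.7 and 14.1 CPM in CD38 KO. ZNF74 was the only one of the 12 largest rises in which a KRAB match was found. The rise of ZNF581 needs care: its annotation overlaps ZNF580, which fell by 0.49 on the log2 scale (43.5, 39.3 and 40.3 CPM in WT against 29.3, 29.1 and 29.1 CPM in the knockout). For ZNF512, 72.6% of the coding windows recur in an overlapping read-through annotation. All 24 of these largest changes kept their direction and their call in each of 14 alternative fits.

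Among 13 DNA-binding regulators without KRAB at 10 CPM or more, 7 rose, 2 fell and 4 did not pass, so that 69.2% were called beside 63.6% of protein-coding genes at that level. Beside ZNF217 and ZNF652, which works with the CBFA2T3 corepressor, the rises were ZNF609 (log2 fold change 0.38), ZNF384 (0.30), ZNF148 (0.19), ZNF292 (0.18) and ZNF335 (0.17). ZNF281 and ZNF740 fell by log2 changes of -0.35 and -0.34. The median log2 fold change of the 13 was 0.17, and over all 19 genes of the list, with 8 higher and 4 lower, it was 0.01. ZNF143 and ZNF76, which bind the same promoter element, had log2 changes of -0.04 and 0.06 and did not pass (edgeR adjusted p = 0.74 and 0.42). The calls of ZNF148, ZNF292 and ZNF335 were lost with library size alone and, like that of ZNF740, without WT replicate 2. Those of ZNF292 and ZNF335 were also lost without WT replicate 3 or CD38 KO replicate 1, and that of ZNF335 without CD38 KO replicate 2.

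ZNF281, a C2H2 factor that binds G-rich promoters, shows the size of such changes. Its WT libraries were at 53.8, 48.3 and 54.6 CPM and its CD38 KO libraries at 44.1, 36.7 and 41.9 CPM. The lowest WT library was above the highest knockout library.

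Of 9 corepressor scaffolds at 10 CPM or more, 3 rose, 3 fell and 3 did not pass (66.7% called, beside 63.6%). The falls were ZNF536, ZNF521 and ZNF518B (log2 fold change -0.49), a partner of the H3K9 methyltransferase G9a. The rises were ZNF592 (0.43), part of a complex with ZMYND8, ZNF644 (0.21), which joins G9a and GLP with WIZ, and ZNF512B (0.17). The calls of ZNF644 and ZNF512B were lost with library size alone and without CD38 KO replicate 1. That of ZNF512B was also lost with DESeq2 and limma-voom, and without WT replicates 2 or 3 or CD38 KO replicate 2. ZNF592 was at 52.1, 44.1 and 44.3 CPM in WT and at 63.6, 61.1 and 64.5 CPM in CD38 KO, with no overlap.

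Of 10 members that act on RNA, ribosomes or translation, 4 rose, 3 fell and 3 did not pass (70% called, beside 63.6%). ZNF598, ZNF318, ZNF277 (log2 fold change 0.37), which binds a small-subunit ribosomal protein, and ZNF706 (0.13), with 31.8% of its coding windows shared, rose. ZNF106 (-0.50), ZNF622 (-0.33), a factor of large-subunit maturation, and ZNF326 (-0.30), which links polymerase to splicing, fell. ZNF622 was at 82.4, 80.8 and 78.2 CPM in WT and at 62.1, 66.9 and 63.3 CPM in CD38 KO, with no overlap. The call of ZNF706 was lost with library size alone and in 4 of 6 fits that left out a library, namely those without WT replicates 1 or 3 or CD38 KO replicates 2 or 3.

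Of 4 members that act in genome maintenance or mitosis, ZNF830 rose (log2 fold change 0.24), ZNF207, which loads the checkpoint protein BUB3 on kinetochores, fell (-0.13), and ZNF451 and ZNF280B did not pass, at -0.14 and 0.14 (50% called, beside 63.6%). ZNF207, which shares 26.6% of its coding windows with another annotated gene, was at 172, 162 and 163 CPM in WT, against 156, 146 and 152 CPM in CD38 KO. Its call was lost without WT replicate 1 or without CD38 KO replicates 2 or 3, and that of ZNF830 with library size alone. Per kilobase of annotated exon the members ranged from 0.522 CPM for ZNF26 to 42.5 CPM for ZNF622, with a median of 4.39 CPM.

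The members were then divided by the domains found in their translated coding sequences. A KRAB match together with at least 2 C2H2 matches was found in 47 members, C2H2 matches without KRAB in 81, and fewer than 2 C2H2 matches in 10. KRAB members here are the 47 with such a match. The KRAB pattern was widened after the data were seen, and a KRAB protein that it still misses stands among those without KRAB. The counts by class below are therefore counts by pattern match, and missed KRAB proteins could change them in both classes. The KRAB members had a median of 11 C2H2 matches (range 2 to 17) and the others with C2H2 a median of 7 (range 2 to 31). Levels per kilobase of exon had a median of 2.76 CPM in KRAB members and of 5.37 CPM in C2H2 members without KRAB.

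Most KRAB members that changed were lower in CD38 KO. Of 47, 22 fell (46.8%), 4 rose (8.51%) and 21 did not pass, and the median log2 fold change was -0.22. Of these 47, 8 passed the level rule through WT alone and lean the count downward. Among the 39 at 10 CPM or more in both groups 19 fell (48.7%) and 4 rose (10.3%), and their median was -0.24. Of 81 C2H2 members without KRAB, 17 fell (21.0%) and 29 rose (35.8%), with a median of 0.07 that was 0.02 without WT replicate 2 and 0.11 without WT replicate 1. Of the 10 with fewer than 2 C2H2 matches 3 fell and 5 rose, with a median of 0.18. Beside them stand 31.2% lower and 32.4% higher among protein-coding genes at 10 CPM or more. The difference between the classes was not tested, since the members were chosen with results of these data known. With library size alone 29 KRAB members fell and 1 rose, and in the class without KRAB 28 fell and 14 rose, so that the direction of that class depends on the scaling and its median turned to -0.02.

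Summed over the KRAB members, every knockout library was below every WT library. Their summed level was 1122, 1070 and 1106 CPM in WT and 997, 914 and 932 CPM in CD38 KO, or 1099 ± 27 against 948 ± 43 CPM (SD, n = 3 each). These sums include members that passed the level rule through WT alone, which lean the comparison downward. For C2H2 members without KRAB and without ZNF536 the sum was 2729, 2597 and 2653 CPM in WT and 2745, 2628 and 2659 CPM in CD38 KO, and these groups overlapped.

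**Figure D3:**
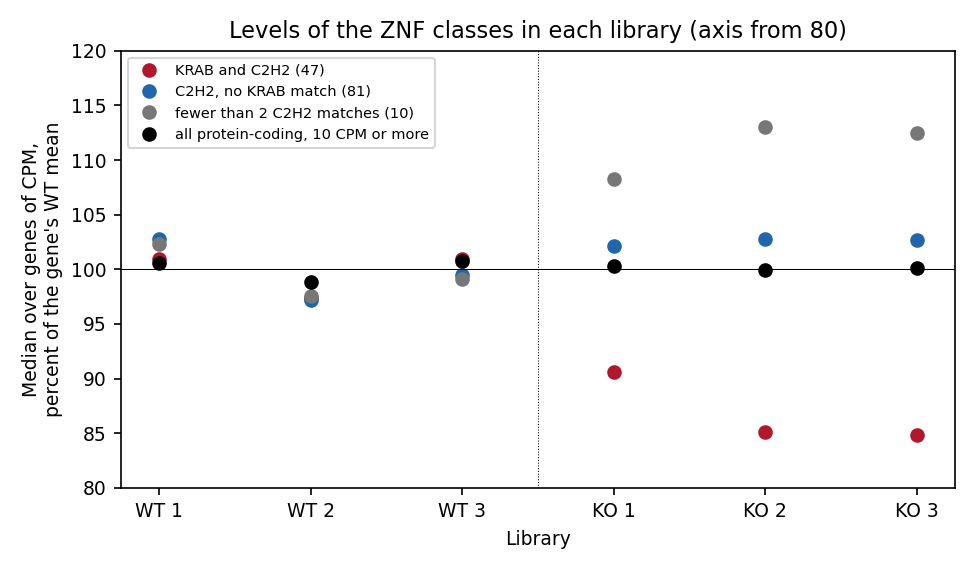
For each library (x axis), the median over the genes of a class of CPM as a percent of the gene's WT mean (y axis, from 80), with the number of genes in brackets. The KRAB class is at 90.6%, 85.1% and 84.8% in the 3 knockout libraries, while C2H2 members without KRAB are at 102% to 103% there. Both classes include members that passed the level rule through WT alone.

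The KRAB A-box is the stretch that contacts TRIM28. Its coding sequence is shown for 3 members that fell and for ZNF12, which rose, 5′ to 3′ from GENCODE 29 (GRCh38). Capitals mark codons of residues that the searched pattern fixed or, at the place after the aspartate, limited to valine or leucine. The stretches are chr19:53402077-53402115 for ZNF765, chr19:52849163-52849201 for ZNF468, chr16:31884510-31884548 for ZNF267 and chr7:6697761-6697799 for ZNF12.
ZNF765: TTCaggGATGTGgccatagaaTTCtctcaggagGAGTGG
ZNF468: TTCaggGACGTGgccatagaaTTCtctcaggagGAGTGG
ZNF267: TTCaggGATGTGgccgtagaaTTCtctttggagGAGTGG
ZNF12: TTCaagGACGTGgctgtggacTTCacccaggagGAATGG
The search fixed or limited the residues in capitals and also limited some of those in lower case, so likeness at these places is no result. ZNF765 was at 26.8, 22.7 and 25.5 CPM in WT and at 15.9, 15.1 and 16.7 CPM in CD38 KO, and ZNF468 at 28.0, 23.8 and 24.4 CPM in WT and at 16.8, 13.8 and 16.3 CPM in CD38 KO. ZNF267 was at 31.2, 28.6 and 31.4 CPM in WT and at 19.8, 18.1 and 18.6 CPM in CD38 KO. ZNF12 was at 23.0, 21.1 and 24.7 CPM in WT and at 28.0, 25.9 and 28.5 CPM in CD38 KO. The groups did not overlap for any of the 4.

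Beside ZNF12 (log2 fold change 0.26), the members with a KRAB match that rose were ZNF74 (0.46), ZNF248 (0.28) and ZNF689 (0.25). ZNF74 was at 17.4, 16.2 and 16.5 CPM in WT and at 22.4, 24.3 and 22.3 CPM in CD38 KO. These 4 lie off chromosome 19. Only 2 KRAB members rose when WT replicate 1 or WT replicate 2 was left out.

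Some KRAB members are known repressors of repeats or imprints. Of 11 such genes listed, 4 were at 10 CPM or more (75% called, beside 63.6% of protein-coding genes at that level). Of these, ZNF765, ZNF267 and ZNF37A fell and ZNF274 did not pass (log2 fold change -0.15, edgeR adjusted p = 0.13). Over the 9 listed genes tested, 4 fell, none rose and 5 did not pass (44.4% called, beside 44.4% of all genes tested). Their log2 changes were negative for 6 and positive for 3. ZNF274 recruits SETDB1 to the ends of other ZNF genes. It was at 17.8, 17.6 and 18.9 CPM in WT and at 16.1, 16.2 and 16.7 CPM in CD38 KO.

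KRAB genes arose by duplication and share sequence, so their counts depend on how reads with several matches were treated, which is not given in the sources used here. Over 10% of 50-base coding windows recurred in transcripts of another gene for 19 members, 14 of them KRAB members. Among the 33 KRAB members at or under that share, 12 fell and 4 rose, and the median log2 fold change was -0.14. Of protein-coding genes at 10 CPM or more, 31.2% were called lower and 32.4% higher. Over all 47 KRAB members 22 fell and 4 rose, with a median of -0.22, so many of the falls are in genes with over 10% shared windows. ZNF33A and ZNF33B show the difficulty: they share 15.6% and 16.5% of their windows, ZNF33B fell (log2 fold change -0.66), and ZNF33A did not pass (-0.03) and was at 32.1, 22.9 and 22.3 CPM in CD38 KO, the highest coefficient of variation of any member but ZNF536 there.

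Below the level rule, KRAB genes were also more often lower than higher. Of 184 tested KRAB ZNF genes under 10 CPM, 63 fell (34.2%) and 18 rose (9.78%), and the median log2 fold change was -0.21. Beside them stand 21.6% lower and 22.8% higher among all genes tested. Of 71 tested C2H2 ZNF genes without KRAB under 10 CPM, 15 fell and 15 rose (21.1% each). These genes are not members and were not used to choose them, but they come from the same libraries and the same knockout clone. Their shared coding windows were not counted.

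**Figure D4:**
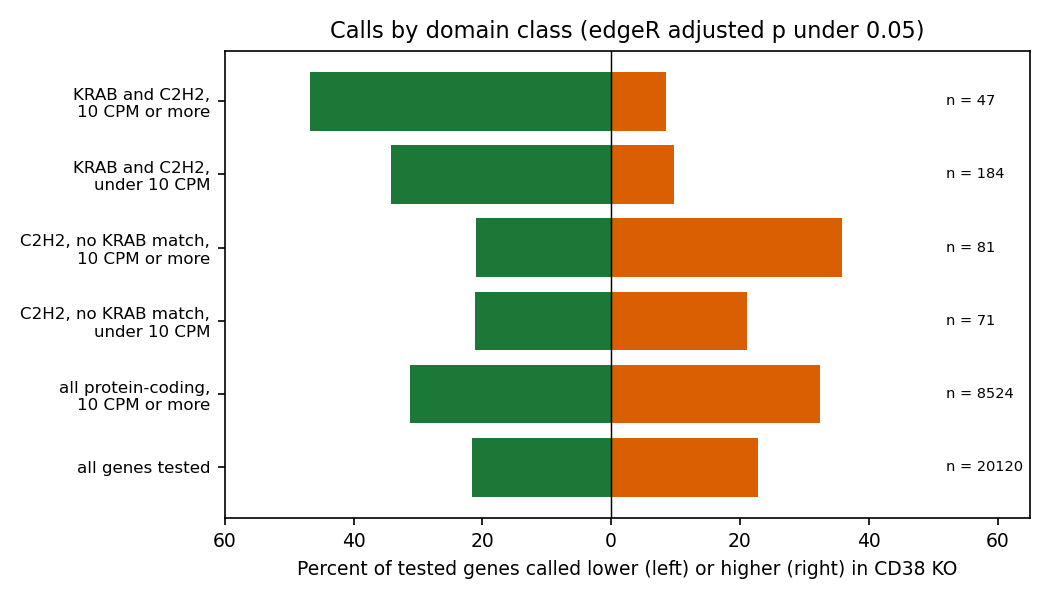
Percent of tested genes called lower (left bars) or higher (right bars) in CD38 KO by edgeR at an adjusted p under 0.05, for ZNF genes by domain class and level and for 2 backgrounds, with the number of genes tested. KRAB genes have 46.8% lower and 8.51% higher at 10 CPM or more, and C2H2 members without KRAB have 21.0% lower and 35.8% higher.

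Chromosome 19 carries 39 of the members, 25 of them KRAB members. Of the 39, 7 rose and 17 fell, while of the 457 other protein-coding genes at 10 CPM or more on that chromosome 178 rose and 102 fell. Among its 25 members with a KRAB match 14 fell and none rose, with a median of -0.26. Of the 25, 5 passed the level rule through WT alone. Of the 20 at 10 CPM or more in both groups 12 fell. Among its 13 C2H2 members without a KRAB match 6 rose and 3 fell. A KRAB protein that the pattern missed would be counted among these 13, ZNF473 (log2 fold change 0.20) and the other rises included. Off chromosome 19, 8 of 22 KRAB members fell (36.4%) and 4 rose (18.2%), with a median of -0.15, so that the share lower was near the 31.2% of protein-coding genes at 10 CPM or more and the share higher was under their 32.4%.

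Falls stood near each other in 2 stretches, whose limits were set after the values were seen. Of 10 members that start before 13 Mb, from ZNF557 to ZNF791, 7 fell and none rose, all 7 of them KRAB members, with ZNF266 (log2 fold change -0.59) and ZNF136 (-0.55) lowest. Among protein-coding genes at 10 CPM or more 31.2% were called lower. ZNF557 and ZNF562 passed narrowly (edgeR adjusted p = 0.048 and 0.0498), and their groups overlapped. ZNF266 was at 33.5, 31.0 and 30.5 CPM in WT and at 22.7, 19.4 and 20.8 CPM in CD38 KO. At the end of that stretch ZNF44 and ZNF791 did not pass (0.19 and 0.10).

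Between 52 and 54 Mb lie 6 members, all KRAB proteins: ZNF766, ZNF611, ZNF28, ZNF468, ZNF765 and ZNF761. Of these ZNF611, ZNF468, ZNF765 and ZNF761 fell, with log2 changes of -0.67, -0.70, -0.66 and -0.32, while ZNF766 (-0.03) and ZNF28 (-0.20) did not pass. ZNF766 averaged 29.2 ± 1.1 CPM in WT and 28.6 ± 1.7 CPM in the knockout (SD, n = 3 each), and the groups overlapped. ZNF468 shares 18.2% of its coding windows, mostly with ZNF28, and ZNF765 shares 16.6%, mostly with ZNF761. ZNF611 shares 23.8%, ZNF28 15.2% and ZNF761 12.1%, while ZNF766, which was flat, shares 1.1%. All the falls of this stretch are thus in genes with over 10% shared windows, and their counts are uncertain. For ZNF761 the groups overlapped (edgeR adjusted p = 0.037).

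Toward the end of the chromosome the members were mixed. From 55 Mb to ZNF71, with 1 KRAB member of 6, ZNF524, ZNF581 and ZNF444 rose and ZNF580 fell. Beyond ZNF71 lie 7 KRAB members, of which ZNF586 and ZNF548 (log2 fold change -0.49) fell and 5 did not pass. Between 42 and 47 Mb, ZNF526 and ZNF428 rose, and ZNF45 and ZNF296 fell, among 7 members.

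**Figure D5:**
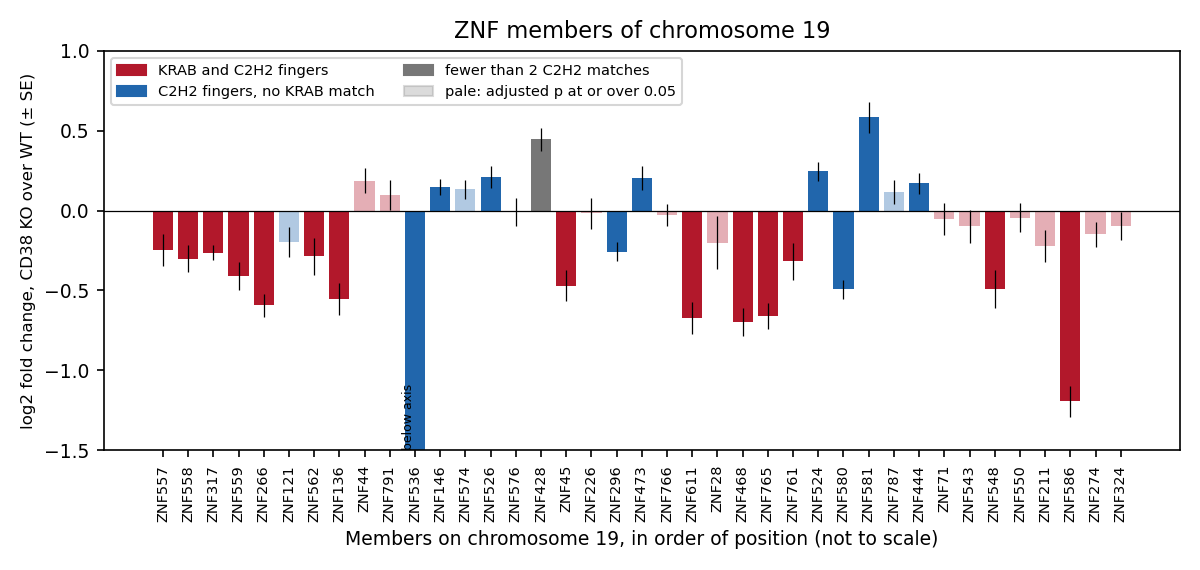
Log2 fold change (CD38 KO over WT, y axis, with SE bars) for the 39 members on chromosome 19, in order of position (x axis, not to scale), coloured by domain class, with pale bars where the adjusted p is at or over 0.05. The bars of members with a KRAB match that passed all point down, and the bar of ZNF536 runs below the axis.

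On other chromosomes with at least 5 members the counts were small. Of 15 members on chromosome 16, 6 rose and 2 fell, and other protein-coding genes at 10 CPM or more there also leaned upward (138 higher and 99 lower of 380). Of 14 on chromosome 7, 2 rose and 5 fell, and the others there also leaned downward (97 higher and 142 lower of 385). All 5 members on chromosome 15 changed, ZNF710, ZNF592 and ZNF609 upward and ZNF770 and ZNF106 downward. On chromosome 20, 4 of 5 rose. Beside these few genes, 63.6% of protein-coding genes at 10 CPM or more were called and 32.4% were called higher. On chromosomes 1, 2, 10, 11, 17 and 18, with 5 or 6 members each, at most 2 rose and at most 3 fell.

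The proteins through which KRAB acts moved in both directions. Of 31 genes for KRAB corepressors and their partners, 8 rose and 11 fell, and the median log2 fold change was 0.03. The share called was 61.3%, beside 63.6% of protein-coding genes at 10 CPM or more and 44.4% of all genes tested. This list has no level rule, and CHD3 and CHD4 averaged under 10 CPM over all libraries. TRIM28 was at 167 ± 5.1 CPM in WT, against 171 ± 5.8 CPM in the knockout (SD, n = 3 each; log2 fold change 0.03, edgeR adjusted p = 0.56), and SETDB1 at 26.6 ± 1.4 and 29.7 ± 2.2 CPM (log2 fold change 0.16, edgeR adjusted p = 0.075).

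Single components did change. In the HUSH complex, which silences young transposable elements, TASOR fell (log2 fold change -0.99, SE 0.067; edgeR adjusted p = 2.8e-10) and MPHOSPH8 rose (0.62, SE 0.059; edgeR adjusted p = 2.3e-08). TASOR went from 67.5 ± 5.6 to 34.0 ± 2.5 CPM and MPHOSPH8 from 34.0 ± 1.5 to 52.2 ± 2.5 CPM (SD, n = 3 each). PPHLN1, of the same complex, also fell, from 61.1 ± 3.5 to 49.0 ± 1.8 CPM (log2 fold change -0.32, SE 0.056; edgeR adjusted p = 7.6e-05). UHRF1, which guides the copying of DNA methylation, fell by 0.91 on the log2 scale, and CHD3, a NuRD remodeller, rose from 1.80 ± 0.55 to 11.4 ± 0.59 CPM (log2 fold change 2.66).

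Related families at 10 CPM or more were small. Of 20 ZBTB genes, whose proteins pair C2H2 fingers with a BTB domain, 5 rose and 7 fell (60% called, beside 63.6% of protein-coding genes at that level). Of 6 genes named ZFP, 3 rose and 3 fell, of 3 ZSCAN genes 1 rose and 1 fell, and neither of 2 ZKSCAN genes passed.

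Promoter sequences (250 bases before to 50 after the start, RefSeq, GRCh38.p14) were matched by symbol for 120 of the 138 members. The ETS core CCGGAAGT, searched on both strands, was in 24 of them (20%), beside 10.4% of 6937 other protein-coding genes at 10 CPM or more and 4.44% of all 27305 promoters. These 24 were 5 members that rose, 5 that fell and 14 that did not pass. The NRF1 core was in 3 of 120 (2.5%), beside 2.61% and 1.36%, and the long element bound by ZNF143 in 3 of 120 (2.5%), beside 0.649% and 0.256%. CCAAT was in 42.5%, beside 37.9% and 35.7%. A match is only a match of letters. Each motif was counted separately, so a promoter can count under several.

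The promoters of ZNF586, among the largest falls, and of ZNF652, a rise, are shown 5′ to 3′ on the gene's strand, with matches in capitals: CCAAT and the reverse complement of the ETS core in ZNF586 (chr19:57769426-57769725, plus strand) and the NRF1 core in ZNF652 (chr17:49362201-49362500, minus strand).
ZNF586: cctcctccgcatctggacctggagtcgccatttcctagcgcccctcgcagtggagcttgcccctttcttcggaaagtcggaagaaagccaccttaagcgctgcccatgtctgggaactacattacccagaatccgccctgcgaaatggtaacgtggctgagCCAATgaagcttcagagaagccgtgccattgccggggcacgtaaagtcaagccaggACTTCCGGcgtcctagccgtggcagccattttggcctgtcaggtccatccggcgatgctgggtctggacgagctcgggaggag
ZNF652: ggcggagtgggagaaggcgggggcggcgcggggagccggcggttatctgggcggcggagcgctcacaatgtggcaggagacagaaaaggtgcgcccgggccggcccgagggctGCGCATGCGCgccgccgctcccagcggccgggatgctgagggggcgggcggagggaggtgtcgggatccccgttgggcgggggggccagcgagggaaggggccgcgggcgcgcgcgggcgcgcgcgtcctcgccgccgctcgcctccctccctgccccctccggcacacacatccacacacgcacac
ZNF652 was at 41.6, 39.6 and 37.5 CPM in WT and at 58.7, 50.2 and 56.4 CPM in CD38 KO, with no overlap. The shares of members with an ETS core were 15.2% among 33 that rose and 14.3% among 35 that fell.

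Replicates were close for most members. Apart from ZNF536, the coefficient of variation over 3 libraries had a median of 5.42% in WT and 5.45% in CD38 KO. It was highest for ZNF28 in WT (23.8%; 26.4, 16.3 and 24.2 CPM) and for ZNF33A in CD38 KO (21.1%), and both are KRAB genes with shared sequence. Every member but ZNF536 had at least 100 counts in every library.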

How the data were processed

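RNA of MM.1S cells was measured in 6 libraries (3 WT, 3 CD38 KO). The values are raw read counts per gene in 1 table, as deposited by the authors. Per the submitters' processing notes, the tools were STAR 2.7.9a, DESeq2 and Partek, with no role stated. For the build, annotation, counter, strand setting and reads with several matches, details were not given in the sources used here. Genes that overlap, lie antisense or have near-copies therefore have uncertain counts. Of 60871 table lines, 200 were repeats with identical counts for their identifier, and 60671 genes stayed. Total counts were 61515519 to 72335496 per library, where 3 counts, the most that a count of 0 allows, are at most 0.0504 TMM-scaled CPM; floors and intervals cover counting error only.

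Members were chosen on counts scaled by column sums. CD38 KO was compared with WT with edgeR 4.0.16 (quasi-likelihood, R 4.3.3) on all genes, with TMM factors, filterByExpr, robust dispersions, no covariate and Benjamini-Hochberg adjustment over 20120 genes. Printed CPM are TMM-scaled unless they define membership. Alternatives were RLE factors, library size alone, no filter on low counts, 1 CPM in 3 libraries, DESeq2 1.42.0, limma-voom (limma 3.58.1), a replicate block, protein-coding genes only, each library left out, thresholds of 5 and 20 CPM or 10 CPM in both groups, and a 2-fold change; the class counts under these, off chromosome 19 and by shared sequence were chosen after seeing the data.

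Positions and coding sequences came from GENCODE 29 (GRCh38) through the Ensembl identifier and may not be the annotation counted with. Coding sequences were translated for all 138 members and searched for C2H2 and KRAB patterns. The planned KRAB pattern missed known KRAB proteins and was widened after the data were seen, and it may still miss others. A match in any complete coding transcript of a gene counted. Class counts under the planned pattern are not given here. On simulated counts of 19380 genes with 200 changed, the procedure recovered 97% of the 1.5-fold changes and 100% at 2-fold and at 4-fold, and 6.16% of 211 calls were false; the data hold far more changes.

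The members and the lists were chosen with earlier results of these data known. Named genes were the 12 largest changes each way among called members without overlap, members on the lists, members near the level threshold or under it in a group, and of the corepressor genes those with the 4 smallest adjusted p beside TRIM28 and SETDB1. Any other gene was named after its values were seen.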

Additional observations from a re-analysis of the deposited data

How the results depend on the processing

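The members that rose (38) and fell (42) numbered 18 and 60 with library size alone, and 1 and 3 when a 2-fold change was also required. With a level threshold of 5 CPM 72 fell, and with 20 CPM 25 fell. The median log2 fold change of the members (-0.05) was -0.13 with library size alone, -0.13 at 5 CPM and 0.0100 at 20 CPM, and ranged from -0.0987, without WT replicate 2, to -0.0284 over fits without a library, in which 26 to 35 members rose and 37 to 43 fell. Of KRAB members (4 rose, 22 fell), 1 rose with library size alone, 8 fell off chromosome 19 and 12 fell at or under 10% shared windows; without a library 2 to 4 rose, with 2 without WT replicate 1 or WT replicate 2. Of C2H2 members without KRAB, 14 rose and 28 fell with library size alone, where their median was -0.0155; without a library 19, without WT replicate 3, to 27 rose and their median was 0.0196 to 0.107. Over 14 other fits, 20 of 138 members changed sign in at least 1, none of them a called member. With library size alone 6 members did, and among single genes followed in every setting these values changed sign: with library size alone ZNF76 (-0.0258), ZNF638 (-0.0070), ZNF330 (-0.0077), ZNF24 (-0.0736) and TRIM28 (-0.0497), ZNF24 also without a filter (-0.00652) and without WT replicate 1 (-0.00177; up to 0.0203 over fits without a library), and ZNF143 without CD38 KO replicate 3 (0.0159; down to -0.112). With the replicate block 38 members rose and 43 fell, and all 80 calls held in the block. Same-numbered libraries deviated together little (r = 0.0337, -0.0080 and -0.0207), and differently numbered ones had r of -0.0236 to 0.0351. These values cannot exclude that the numbers pair the samples, since the spread of single genes also lowers r. The CD38 check gave a log2 change of -5.68 to -5.24 over fits without a library. The causes were not tested, apart from what each alternative removes by construction.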
